A study of Mus musculus with 9 samples.

Results

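The genes described here encode enzymes that make serine, the folate-bound carbon units derived from it, and the nonessential amino acids asparagine, cysteine and proline. They are 10 genes chosen by name, with earlier results of these data known, and they are set against 22180 genes tested. Phgdh, Psat1 and Psph serve serine synthesis, and Shmt2, Mthfd2 and Aldh1l2 the folate cycle of mitochondria. Asns serves the synthesis of asparagine, Cth that of cysteine, and Aldh18a1 and Pycr1 that of proline. 9 of the 10 were measured, each on 1 probe set, and Pycr1 was not, because no probe set of the annotation used carries its symbol. RNA came from mouse podocytes, the epithelial cells that wrap the capillaries of the kidney glomerulus, which had been kept in culture for 11 days at 37 °C to differentiate. 3 arrays were hybridised with RNA of cells given 2.5 µM thapsigargin plus 10 µM forskolin (the combined arrays below), 3 with RNA of cells given 2.5 µM thapsigargin without forskolin, and 3 with RNA of cells given the vehicle DMSO, with a treatment time of 16 hours. Thapsigargin inhibits SERCA, so that calcium leaks out of the endoplasmic reticulum (ER) and is not pumped back, forskolin activates adenylyl cyclase and so raises cAMP, and no arrays of forskolin without thapsigargin were analysed here. The labels name no strain, age, genotype or podocyte line.

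Serine is built from the glycolytic intermediate 3-phosphoglycerate by Phgdh, Psat1 and Psph in turn. Shmt2 moves a carbon of serine onto tetrahydrofolate inside mitochondria, Mthfd2 oxidises the product, and Aldh1l2 releases it as carbon dioxide with the formation of NADPH. In mammalian cells genes of this set are known targets of the transcription factor ATF4, whose translation rises when the eIF2α kinases respond to ER stress or to a lack of amino acids. A deposited value is a log2 expression value, so a difference of 1 is a doubling, and it tells how a gene stood on an array relative to the bulk of the genes. Probe sets bind with unlike efficiency, so no gene is ranked against another by its level, and the median over probe sets serves only as a rough mark of a dim signal.

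The promoters of these genes are shown first, because the elements that transcription factors such as ATF4 bind are short and can be looked for by their letters. RefSeq promoters of build GRCm38.p6, from 250 bases before to 50 bases after the start of transcription, were at hand for 8 of the 10 genes, in 9 windows; Aldh1l2 and Cth are named only. The C/EBP-ATF composite element, searched as TGATGNAA on both strands, was found in 2 of the 8 genes, Asns and Pycr1, and in 3.97% of all 32851 promoters of the same length. The E-box CACGTG, which is not listed here as an ATF4 element, was found in 1 of the 8, Aldh18a1, and in 7.15% of all promoters. The full cAMP response element TGACGTCA and the ER stress element (ERSE, by its full consensus, both strands) were found in 0 of the 8, and in 1.79% and 0.119% of all promoters. The stretches that hold a match are given 5′ to 3′ on the minus strand, on which all 3 genes lie, with the match in capitals, and each ends before the start of transcription.
Asns, chr6:7693210-7693257, composite element from 23 bases before the start: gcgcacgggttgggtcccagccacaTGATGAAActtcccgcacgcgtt
Pycr1, chr11:120643819-120643876, composite element from 103 bases before the start: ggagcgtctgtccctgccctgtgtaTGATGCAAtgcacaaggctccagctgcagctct
Aldh18a1, chr19:40588492-40588547, E-box from 59 bases before the start: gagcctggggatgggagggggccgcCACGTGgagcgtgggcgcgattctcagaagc
In the human ASNS promoter an element of the composite kind is known to bind ATF4. A match here describes letters alone, and a missing match says only that the letters are not in the window.

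Pearson correlations over all probe sets were 0.989 to 0.993 for arrays of the same group and 0.966 to 0.992 for arrays of different groups. What made the replicates, called biological by the labels, separate is not stated, so a p-value speaks of array spread that may be technical. Of 10 podocyte markers 8 were measured, and 7 of the 8 exceeded 5.83, the median over probe sets, in each group; the eighth was Ptpro. Of 8 tubular markers 6 lay above that median in each group. The mean level of the 8 podocyte markers lay between 7.64 and 7.65 on the combined arrays, between 7.90 and 7.92 on the thapsigargin arrays and between 8.82 and 8.86 on the DMSO arrays, and that of the tubular markers between 6.72 and 6.83, between 6.65 and 6.76, and between 7.66 and 7.72 in the same order of groups. Over 6 measured mesangial and pericyte markers the mean level was 7.05 to 7.21 on the combined arrays, 6.59 to 6.66 on the thapsigargin arrays and 6.96 to 7.04 on the DMSO arrays. It was 6.13 to 6.19, 5.88 to 5.94 and 6.09 to 6.22 over 7 macrophage and leukocyte markers, and 5.94 to 6.002, 6.02 to 6.11 and 6.17 to 6.21 over 7 endothelial markers, with the groups in that order. Few genes carried these shifts in the lists, and they were named after their values had been seen. With thapsigargin against DMSO 5 of 8 podocyte markers fell and 1 rose, with Plce1 at -3.45 and Synpo at -2.52, and 3 of 8 tubular markers fell and 0 rose, Cdh16 at -3.37, Aqp1 at -3.24 and Lrp2 at -1.03. In the same comparison 2 of 6 mesangial and pericyte markers fell, as did 1 of 7 macrophage and leukocyte markers and 1 of 7 endothelial markers, and 0 rose in these 3 lists. A marker is counted here where its limma adjusted p was below 0.05. Over all genes 16.9% were called lower, a share that 1 of 7 does not exceed, and 18.2% higher. With forskolin added, 4 podocyte markers fell and 1 rose, 1 tubular marker rose, 1 endothelial marker fell, 2 macrophage and leukocyte markers rose (Cd14 by 0.87 and Csf1r by 0.82) and 2 mesangial and pericyte markers rose, Mcam by 2.58 and Pdgfrb by 0.38. Of all genes 4.17% were called lower and 3.7% higher with forskolin added. The part of these markers in the results below was not tested, and in a culture dish fewer cells of a kind and less RNA per cell cannot be told apart.

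The first comparison, thapsigargin against DMSO, asked which of these enzymes' transcripts differ after the calcium store of the ER has been emptied. All 9 measured genes were higher on the thapsigargin arrays, and 8 of them at least 2-fold. In limma with Benjamini-Hochberg adjustment over all genes, 18.2% of the 22180 genes were called higher at an adjusted p below 0.05, and 3.08% were called higher and at least 2-fold so. The lowest thapsigargin array lay above the highest DMSO array for 9 of the 9, and for 21.6% of all genes. The median log2 change was 2.15 over the 9 and -0.04 over all genes tested. Since the 9 were chosen with earlier results of these data known, these shares describe them and are no test.

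**Figure D1:**
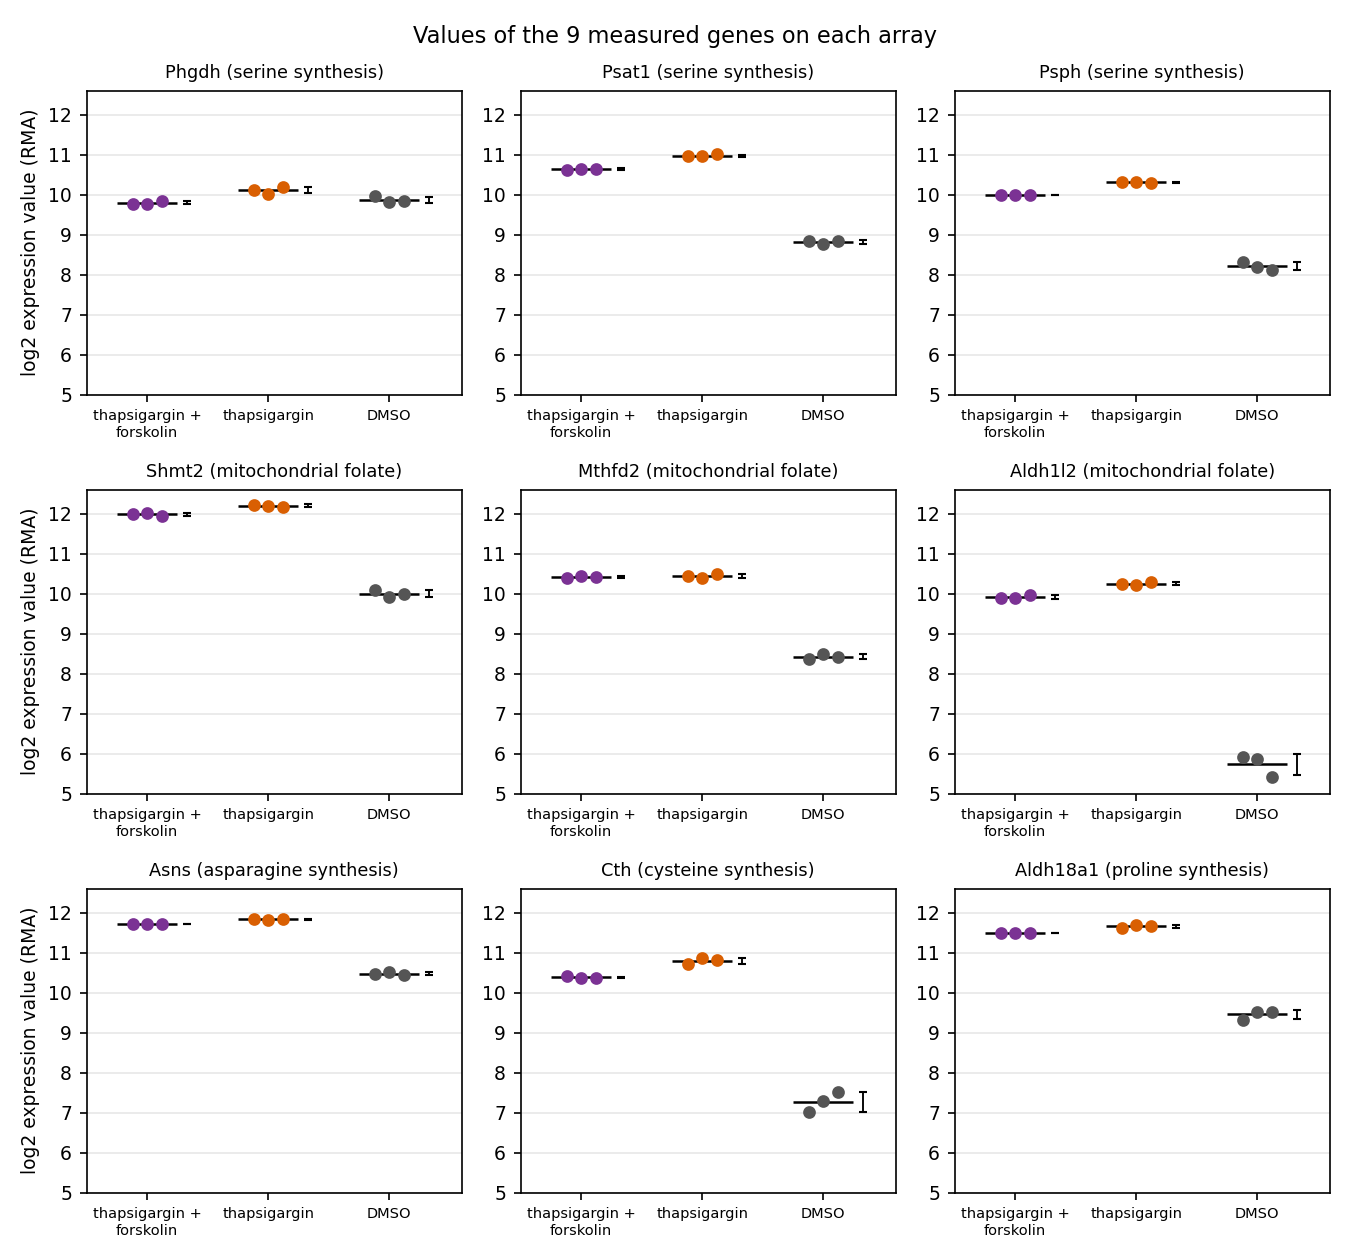
log2 expression values (vertical axis, the same scale in each panel) of the 9 measured genes on the 3 arrays of each group (points), with the group mean (line) and its SD (bar to the right). Phgdh lay close to 10 in each group, while the other 8 genes lay at least 1.21 above every DMSO array on all 6 arrays with thapsigargin.

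The probe sets of the 3 genes of serine synthesis did not change by like amounts. Each gene was read on 1 probe set, and whether these respond alike to a change in RNA was not checked. Phgdh, which catalyses the committed step, had log2 values of 9.77, 9.77 and 9.84 on the combined arrays, 10.12, 10.03 and 10.18 on the thapsigargin arrays and 9.96, 9.82 and 9.84 on the DMSO arrays. It lay near 10 in each group and rose 1.18-fold with thapsigargin (log2 change 0.24 ± 0.06, limma standard error, n = 3 arrays per group; adjusted p = 0.0147), with a gap of 0.07 between the groups. This call was lost without thapsigargin replicate 3 (adjusted p = 0.0601), without DMSO replicate 2 (adjusted p = 0.0542) and after the arrays had been quantile normalized again (change 0.17, adjusted p = 0.0561).

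Psat1, the aminotransferase of the middle step, had values of 10.60, 10.64 and 10.65 on the combined arrays, 10.95, 10.95 and 11.00 on the thapsigargin arrays and 8.85, 8.76 and 8.85 on the DMSO arrays. The 3 groups were fully apart, and Psat1 rose 4.44-fold with thapsigargin (2.15 ± 0.05, limma adjusted p = 6.26e-09). Psph, the phosphatase that releases serine, read 9.99 on each combined array, 10.31, 10.32 and 10.30 on the thapsigargin arrays and 8.32, 8.20 and 8.11 on the DMSO arrays. It rose 4.27-fold (2.10 ± 0.06, limma adjusted p = 1.33e-08). The change of Psat1 exceeded that of Phgdh by 1.91 and the change of Psph exceeded it by 1.86 on the log2 scale. The differences taken array by array did not overlap between the groups, and the exact two-sided permutation p was 0.1 for each of these 2 pairs, the smallest that 3 against 3 arrays can give. That p was also 0.1, before and after Benjamini-Hochberg adjustment, for the other 4 of 6 gene pairs compared in this way, which were chosen with results known. 1 of the 6, Aldh1l2 with its relative Aldh1l1, is not read further because Aldh1l1 was dim in each group.

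Of the mitochondrial folate enzymes, Aldh1l2 changed most. Its values were 9.89, 9.89 and 9.96 on the combined arrays, 10.23, 10.21 and 10.29 on the thapsigargin arrays and 5.91, 5.86 and 5.42 on the DMSO arrays. The DMSO values lay around the median of all probe sets and had the widest spread of the 9 genes (SD 0.27), and whether they stood above background was not checked, so the 22.8-fold rise (4.51 ± 0.11, limma adjusted p = 8.37e-09) rests on a dim baseline. By size of log2 change this was the largest rise of all 22180 genes.

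Shmt2 and Mthfd2, the steps before Aldh1l2, rose by like amounts. Shmt2 had 11.98, 12.02 and 11.95 on the combined arrays, 12.22, 12.20 and 12.16 on the thapsigargin arrays and 10.10, 9.92 and 9.98 on the DMSO arrays, a rise of 4.57-fold with thapsigargin (2.19 ± 0.06, limma adjusted p = 1.03e-08). Mthfd2 had 10.39, 10.45 and 10.42 on the combined arrays, 10.43, 10.38 and 10.48 on the thapsigargin arrays and 8.36, 8.496 and 8.43 on the DMSO arrays, a rise of 4.01-fold (2.005 ± 0.06, limma adjusted p = 1.27e-08). The values of Mthfd2 on the combined arrays lay within the range of those on the thapsigargin arrays, which held for no other gene of the 9.

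Asns, which makes asparagine from aspartate and glutamine and whose promoter stretch is printed above, had 11.71, 11.72 and 11.71 on the combined arrays, 11.84, 11.81 and 11.84 on the thapsigargin arrays and 10.47, 10.503 and 10.44 on the DMSO arrays. Next to Phgdh it had the smallest rise of the 9 with thapsigargin, 2.57-fold (1.36 ± 0.05, limma adjusted p = 3.15e-08). Cth, which splits cystathionine to yield cysteine, had 10.40, 10.37 and 10.37 on the combined arrays, 10.70, 10.85 and 10.82 on the thapsigargin arrays and 7.01, 7.28 and 7.52 on the DMSO arrays. It rose 11.5-fold (3.52 ± 0.11, limma adjusted p = 2.23e-08), the fifth largest log2 rise of all genes, and its DMSO arrays were spread nearly as widely as those of Aldh1l2 (SD 0.26). DMSO replicate 3 had the lowest value of Aldh1l2 and the highest value of Cth in that group, so the spread of the 2 genes did not run the same way.

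Aldh18a1, which carries out the opening steps of proline synthesis from glutamate, had 11.49 on each combined array, 11.61, 11.68 and 11.67 on the thapsigargin arrays and 9.32, 9.52 and 9.52 on the DMSO arrays. It rose 4.59-fold with thapsigargin (2.20 ± 0.06, limma adjusted p = 1.47e-08). Among the 9 genes, Psat1, Psph, Shmt2, Mthfd2 and Aldh18a1 thus had log2 changes between 2.005 and 2.20, with Asns and Phgdh below them and Cth and Aldh1l2 above.

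The second comparison, thapsigargin plus forskolin against thapsigargin alone, asked what forskolin added in cells that had thapsigargin in any case. The differences were small and their estimates lay below 0 for all 9 genes, and the 3 genes of serine synthesis fell. Phgdh fell by 0.31 ± 0.06 (limma adjusted p = 0.0145), Psat1 by 0.34 ± 0.05 (limma adjusted p = 0.00312) and Psph by 0.32 ± 0.06 (limma adjusted p = 0.0101), so their transcripts were 1.24-, 1.27- and 1.25-fold lower on the combined arrays. In all, 3 of 9 were called lower and 0 higher, and 4.17% of all genes were called lower. Every combined array lay below every thapsigargin array for 8 of the 9, and for 14% of all genes. The median log2 change was -0.31 over the 9 and -0.01 over all genes.

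The call of Phgdh was lost without combined replicate 1 (adjusted p = 0.0549), combined replicate 2 (0.0601), thapsigargin replicate 1 (0.0587) or thapsigargin replicate 3 (0.0623). Psph had exactly the same value on the 3 combined arrays, and Asns, Cth and Aldh18a1 had exactly the same value on 2 of them. All 3 combined arrays shared a value for 1.37% of all genes and at least 2 did for 11.7%. These shares were 1.47% and 12.1% on the thapsigargin arrays and 0.753% and 7.8% on the DMSO arrays. An equal value lowers the spread estimated for a gene. Mtrr (9.1831) and Myc (11.2248), described below, also read the same on all 3 combined arrays.

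The other 6 genes did not pass, and their 95% intervals show how large a difference the arrays allow. The intervals hold for 1 gene at a time and are not adjusted over all genes. An interval can thus leave out 0 where the adjusted p does not pass. The log2 difference was -0.41 for Cth (interval -0.66 to -0.16, limma adjusted p = 0.0608), -0.33 for Aldh1l2 (-0.59 to -0.07, adjusted p = 0.139) and -0.21 for Shmt2 (-0.35 to -0.08, adjusted p = 0.0627). It was -0.16 for Aldh18a1 (-0.31 to -0.02, adjusted p = 0.204), -0.12 for Asns (-0.22 to -0.01, adjusted p = 0.199) and -0.01 for Mthfd2 (-0.14 to 0.12, adjusted p = 0.957). The groups overlapped for Mthfd2 alone. The difference of Mthfd2 exceeded that of Psat1 by 0.33, with no overlap between the groups in the differences taken array by array (exact two-sided permutation p = 0.1, the smallest possible).

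**Figure D2:**
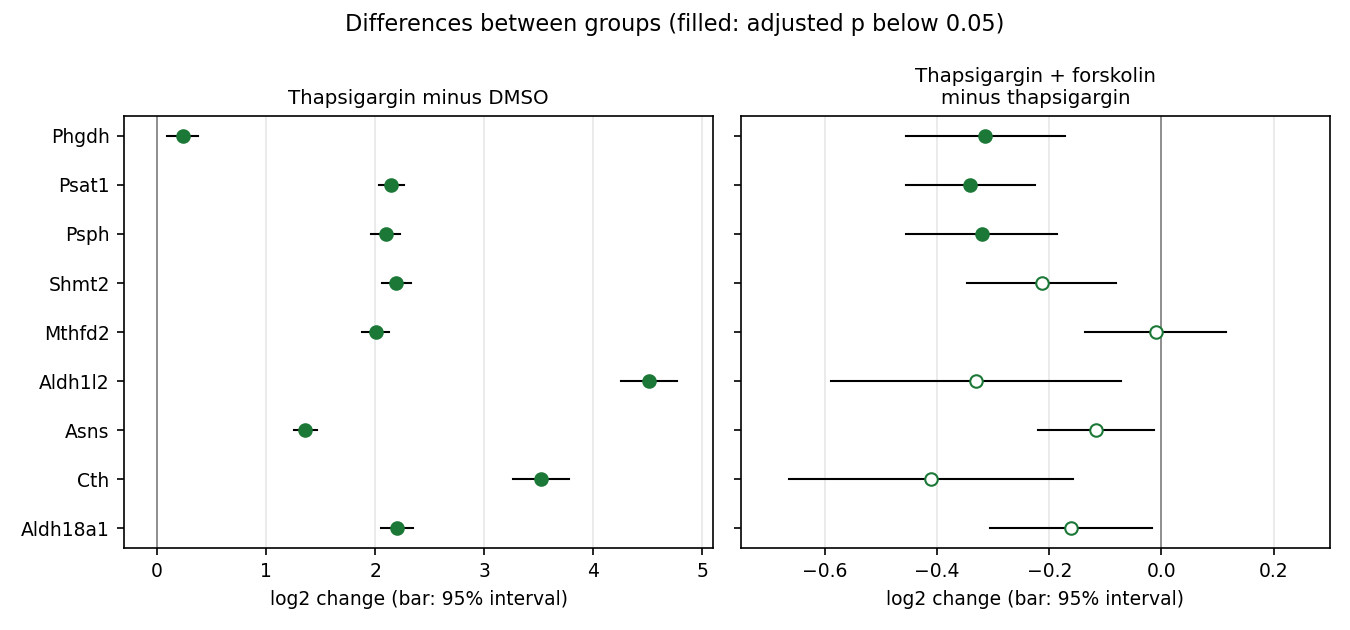
log2 change of each measured gene (point) with its 95% limma interval (bar) for thapsigargin minus DMSO (left) and thapsigargin plus forskolin minus thapsigargin (right), filled where the adjusted p was below 0.05. The horizontal scales differ: the left panel runs to 4.51 for Aldh1l2, while the right panel goes down to -0.41 for Cth. The intervals are not adjusted over all genes, unlike the p-values.

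The spread that enters these tests is shared by the 3 groups, and for Cth and Aldh1l2 most of it came from the DMSO arrays, which are not part of the second comparison. Cth had an SD of 0.02 on the combined arrays, 0.08 on the thapsigargin arrays and 0.26 on the DMSO arrays, and Aldh1l2 had 0.04, 0.04 and 0.27. In a fit of the 6 combined and thapsigargin arrays alone, 6 of the 9 genes were called lower, among them Cth (adjusted p = 0.00661), Aldh1l2 (adjusted p = 0.00885) and Shmt2 (adjusted p = 0.0363). In that fit 1025 of all genes were called lower, beside 924 with all 9 arrays. 5 of the 9 genes were called lower without DMSO replicate 1 and 5 without DMSO replicate 3, where 1101 and 911 of all genes were. The log2 differences of Cth and Aldh1l2 were the same in these fits, and only their errors changed.

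The third comparison, thapsigargin plus forskolin against DMSO, shares its arrays with the other two and sets cells with both agents against the vehicle. 8 of the 9 genes were higher on the combined arrays, each at least 2-fold, where 17.9% of all genes were called higher and 2.57% higher and at least 2-fold so. Aldh1l2 was 18.1-fold higher (4.18 ± 0.11, limma adjusted p = 1.18e-08), Cth 8.64-fold (3.11 ± 0.11, adjusted p = 4.84e-08), and the folate gene Mthfd2 3.98-fold (1.99 ± 0.06, adjusted p = 1.37e-08). Shmt2 was 3.94-fold higher (1.98 ± 0.06), Aldh18a1 4.10-fold (2.04 ± 0.06), Psat1 3.50-fold (1.81 ± 0.05), Psph 3.42-fold (1.77 ± 0.06) and Asns 2.37-fold (1.24 ± 0.05). The exception was Phgdh, with a log2 difference of -0.08 (95% interval -0.22 to 0.06, limma adjusted p = 0.392) and overlapping groups.

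Over the 9 arrays the genes followed a common course, apart from Phgdh, and apart from Mthfd2 between the thapsigargin and the combined arrays. Each gene was correlated (Pearson) with the mean of the other measured members, each scaled to an SD of 1. The correlation was 0.34 for Phgdh and lay between 0.9753, for Mthfd2, and 0.998 for the 8 genes other than Phgdh. These values describe 9 arrays in 3 separate groups, so they reflect the group means in the first place. Among 12158 other genes above the median level, those most like the mean of the 9 members were Wdr75, Slc38a1, Mtrr, Pwp2 and Nol8, with correlations of 0.998 to 0.999 over the same 9 arrays. Wdr75 and Pwp2, which take part in making the small ribosomal subunit, rose by 1.78 ± 0.05 and 1.54 ± 0.06 with thapsigargin and fell by 0.32 ± 0.05 and 0.34 ± 0.06 on the combined arrays against thapsigargin. Nol8, a nucleolar protein gene, rose by 1.79 ± 0.05 and fell by 0.31 ± 0.05 in the same comparisons, and Mtrr is described with the folate genes. Slc38a1 encodes a transporter of neutral amino acids. It rose by 2.09 ± 0.06 with thapsigargin and fell by 0.44 ± 0.06 on the combined arrays against thapsigargin. Wdr75, Slc38a1, Mtrr, Pwp2 and Nol8 were picked here by their correlation with the members over these same arrays. A rise with thapsigargin and a smaller fall with forskolin added thus follow from the choice. Their changes describe the genes picked and are no separate test.

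To see how far neighbouring reactions changed, 90 measured genes of 6 lists around these enzymes were read from the same fit. With thapsigargin 42 of the 90 rose and 14 fell, where 18.2% and 16.9% of all genes did. In the folate cycle outside the 3 members, 8 of 16 genes rose and 1 fell, with a median log2 change of 0.23. Mthfd1l, which releases formate from the same mitochondrial chain, had 9.36, 9.34 and 9.38 on the thapsigargin arrays and 6.88, 7.15 and 7.06 on the DMSO arrays, a 5.01-fold rise (2.32 ± 0.07). Mtr, methionine synthase, rose by 1.38 ± 0.11 and Mtrr, which keeps Mtr active, by 1.49 ± 0.05, while the folate receptor gene Folr1 fell by 1.27 ± 0.06.

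Close relatives of 3 members were read beside them. Shmt1, the cytosolic partner of Shmt2, rose by 0.34 ± 0.07 (limma adjusted p = 0.00272), and the change of Shmt2 exceeded it by 1.86 (exact permutation p = 0.1, the smallest possible with 3 arrays per group). Mean values of Shmt1 were 6.73 on the DMSO arrays and 7.07 on the thapsigargin arrays. Whether the 2 probe sets respond alike to a change in RNA was not checked, here or for the other gene pairs. Aldh1l1, the cytosolic partner of Aldh1l2, lay near the median over probe sets in each group, so that a change could go unseen, and differed by -0.02 ± 0.12 (limma adjusted p = 0.912), with overlapping groups, and the paralogue Mthfd2l of Mthfd2 rose by 0.36 ± 0.08. Aldh1l1 and Mthfd2l were named after their values had been seen.

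Among 12 genes that use serine or glycine 3 rose and 2 fell with thapsigargin, with a median of 0.08. These counts are not far from the shares over all genes, 18.2% called higher and 16.9% lower. Cbs, which joins serine with homocysteine to make the substrate of Cth, moved against Cth. Cbs had 7.12 on each combined array, 6.53, 6.53 and 6.56 on the thapsigargin arrays and 8.17, 8.24 and 8.26 on the DMSO arrays. It thus fell by 1.68 ± 0.05 with thapsigargin (limma adjusted p = 1.33e-08), where Cth rose, a difference of 5.20 between the changes (exact permutation p = 0.1, the smallest possible). It rose by 0.58 ± 0.05 with added forskolin (limma adjusted p = 9.31e-05). Dld, a subunit of the glycine cleavage system and of other dehydrogenases, rose by 1.29 ± 0.05, Shmt1 by the amount given above, and Srr, which turns L-serine into D-serine, fell by 0.34 ± 0.08.

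Of 18 further enzymes of nonessential amino acids 7 rose and 5 fell with thapsigargin, where 18.2% and 16.9% of all genes did. Their median was 0.00. 3 in place of 5 fell without thapsigargin replicate 1, DMSO replicate 1 or DMSO replicate 3. 3 aminotransferase genes led the rises, Bcat1 by 2.17 ± 0.06, Gpt2 by 1.79 ± 0.05 and Got1 by 1.75 ± 0.05. Glul, glutamine synthetase, fell by 1.97 ± 0.06 with thapsigargin (limma adjusted p = 1.71e-08). Its values were 9.14, 9.17 and 9.14 on the combined arrays, 8.33, 8.19 and 8.25 on the thapsigargin arrays and 10.18, 10.19 and 10.32 on the DMSO arrays. Aldh4a1, which breaks proline down toward glutamate, the reverse of what Aldh18a1 begins, fell by 1.35 ± 0.06 with thapsigargin (named for this comparison after its value had been seen).

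Of 11 genes of purine synthesis, which takes up folate-bound carbon, 7 rose and 1 fell with thapsigargin, with a median of 0.73. Impdh1 rose by 1.81 ± 0.14, Atic, which uses a formyl folate, by 1.01 ± 0.06 and Ppat by 0.96 ± 0.06, while Prps2 fell by 0.97 ± 0.07. Of 15 genes of the methionine cycle and glutathione synthesis 2 rose and 4 fell, with a median of 0.02. Over all genes 18.2% were called higher, a share that 2 of 15 does not exceed, and 16.9% lower. Chac1, which degrades glutathione, rose by 2.86 ± 0.05 and Ahcy, which yields homocysteine, by 1.02 ± 0.08, while Csad fell by 0.97 ± 0.05 and Mpst by 0.46 ± 0.07. Of 18 regulators on the path from the eIF2α kinases to ATF4 and its partners 15 rose and 1 fell, with a median of 0.78, led by Trib3, Atf3, Ppp1r15a and Ddit3 with changes of 3.83, 3.17, 2.76 and 2.75. Atf4 itself, named after its value had been seen, rose by 1.16 ± 0.06. The gene that fell, Eif2ak2 at -0.23 (limma adjusted p = 0.0451), was named after its value had been seen, and its call was lost in 10 of 17 alternatives.

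**Figure D3:**
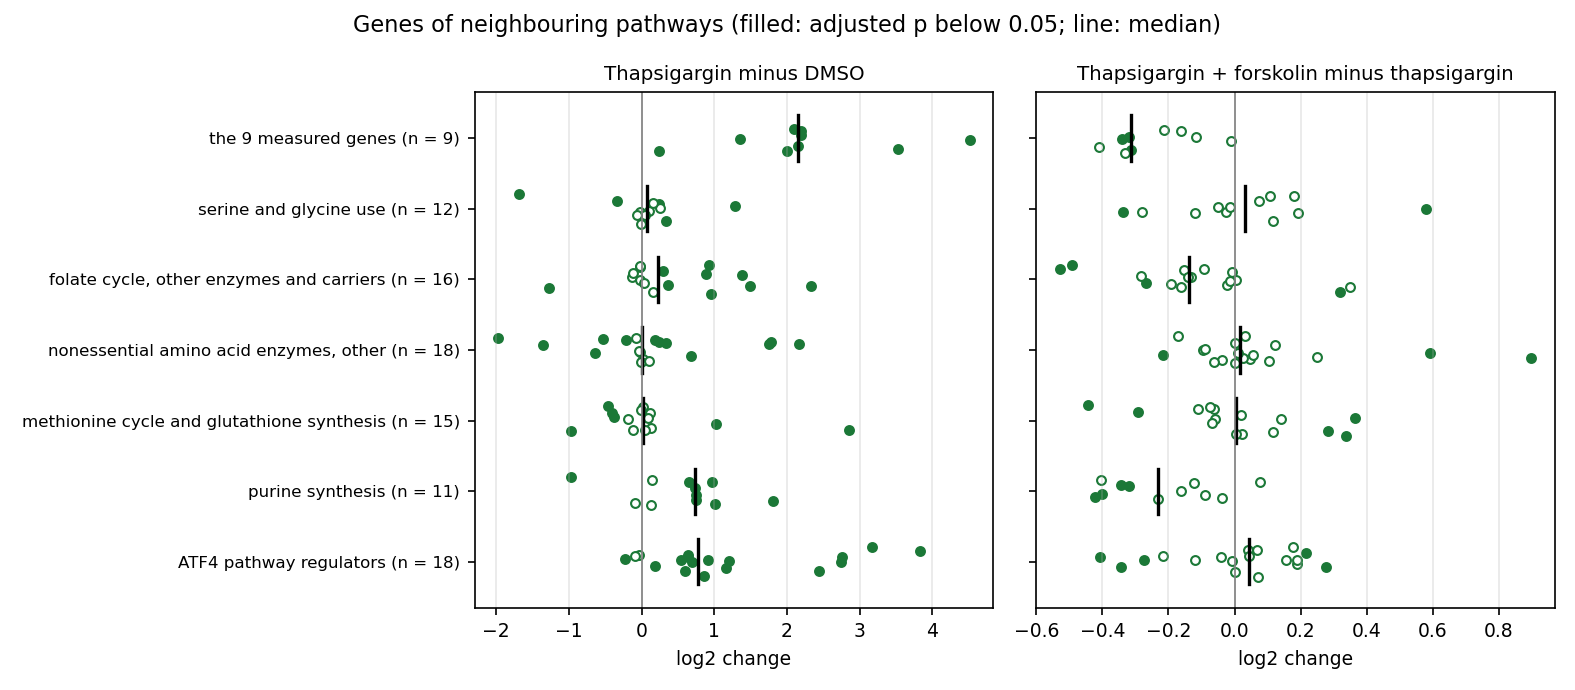
log2 change (horizontal axis) of the 9 measured genes and of 6 lists of neighbouring genes, 1 point per gene, filled where the adjusted p was below 0.05, with the median as a line, for thapsigargin minus DMSO (left) and thapsigargin plus forskolin minus thapsigargin (right). On the left the medians are 2.15 for the 9 genes and between 0.00 and 0.78 for the lists, and on the right -0.31 for the 9 genes and between -0.23 and 0.04 for the lists.

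With forskolin added to thapsigargin, 14 of the 90 neighbouring genes fell and 9 rose, where 4.17% and 3.7% of all genes did. Without thapsigargin replicate 1, 9 of the 90 fell, as did 586 of all genes, beside 924 with all arrays. The folate genes that fell were Mthfd1l by 0.53 ± 0.07, Mthfd1, the cytosolic enzyme of the same steps, by 0.49 ± 0.06, and Mtrr by 0.27 ± 0.05, and Folr1 rose by 0.32 ± 0.06, a call lost without combined replicate 1, combined replicate 3 or thapsigargin replicate 3. 4 of 11 purine genes fell and 0 rose: Atic by 0.42 ± 0.06, Gart by 0.40 ± 0.07, Adsl by 0.34 ± 0.05 and Ppat by 0.32 ± 0.06. Shmt1 fell by 0.34 ± 0.07, and 0 genes of its list were called lower without combined replicate 3 or thapsigargin replicate 1. Some genes that had fallen with thapsigargin rose with forskolin added, among them Glul by 0.90 ± 0.06 (limma adjusted p = 2.52e-05) and Aldh4a1 by 0.59 ± 0.06 (limma adjusted p = 0.000557). Of the remaining amino acid enzymes Got2 fell by 0.22 ± 0.05, a call lost without any 1 of the 6 combined and thapsigargin arrays and with the mean of all probe sets of a gene. Since these changes and those with thapsigargin share the thapsigargin arrays, a high or low reading there moves the 2 in opposite directions.

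In the list of the methionine cycle and glutathione synthesis 3 of 15 genes rose and 2 fell with added forskolin. Of all genes 3.7% were called higher and 4.17% lower, which is also the measure for the regulators below. Gclc rose by 0.36 ± 0.06, Csad by 0.34 ± 0.05 and Gclm by 0.28 ± 0.05, while Ahcy fell by 0.44 ± 0.08 and Gss by 0.29 ± 0.06. Among the regulators Myc fell by 0.41 ± 0.08, Nupr1 by 0.34 ± 0.06 and Ddit4 by 0.27 ± 0.06, while Nfe2l2 rose by 0.28 ± 0.05 and Eif2ak3 by 0.22 ± 0.05. The other 13 of the 18 regulators were not called. Among these were Atf4 (-0.01), Ddit3 (0.0005), Atf3 (0.04), Ppp1r15a (0.07) and Trib3 (0.19). 1 regulator in place of 3 fell without combined replicate 2, combined replicate 3 or thapsigargin replicate 1, and 1 in place of 2 rose without any 1 of the 6 combined and thapsigargin arrays, without DMSO replicate 3 or with arrays centred on their medians. 4 regulators rose with an intensity trend and robust prior, and 4 among genes above the median level, so that over the 17 alternatives the count lay between 1 and 4. It was 1 or 4 in 11 of the 17, of which not all are named here. Genes of the second comparison beyond the 2 with the largest change in each list were named after their values had been seen.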

How the data were processed

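The authors deposited log2 expression values, 1 per probe set and array, for which affy and RMA are named in the submitters' processing notes. RMA subtracts background, equalises the arrays by quantiles and combines probes by median polish. Tool versions and the genome build: not given in the sources used here. Detection above background was not checked, and precision is limited by how many arrays there are.

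Of 41345 probe sets 23521 carry 1 symbol, 1814 several and 16010 none. Per gene the 1-symbol probe set with the highest mean was used (22180 genes); 23328 of the 23521 matched RefSeq GRCm38.p6 names by Entrez ID, and 0 symbols changed. All 9 arrays entered 1 limma 3.58.1 fit of group means (R 4.3.3, eBayes, 6 residual degrees of freedom, no covariate), with two-sided contrasts and Benjamini-Hochberg adjustment over all genes. The procedure was tested on simulated data in which few genes were changed, by amounts above the forskolin differences of the members. That test does not bear on such small differences.

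The members, the 103 neighbouring genes in 6 lists (90 measured) and the markers were chosen with earlier results of these data known, so counts are set beside those over all genes and no list was tested. Named neighbours are, per list, the up to 4 called genes with the largest change in the first comparison and up to 2 in the second, plus the 5 genes most like the members' mean. Alternatives were a fit of the 6 arrays compared, an intensity trend with robust prior, centring on array medians, a repeated quantile normalization, a filter on dim genes, the mean of probe sets, array weights, leaving out each array in turn, and a block for the replicate number. Python 3.11.15 and matplotlib 3.10.9 drew the figures.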

Additional observations from a re-analysis of the deposited data

How the results depend on the processing

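The rises with thapsigargin of the 8 genes other than Phgdh kept their direction and their call in all 17 alternatives, and so did their rises with both agents against DMSO; 8 or 9 of the 9 genes were called higher with thapsigargin in each alternative. The small differences with added forskolin depended more on the settings. There 3 of 9 were called lower, and 6 with only the 6 arrays compared, 6 with an intensity trend and robust prior, 5 among genes above the median level and 5 with array weights, and between 2 and 5 with an array left out. In the first 4 of these settings all genes called lower numbered 1025, 1297, 1296 and 1221. These counts exceed the 924 with all arrays, although fewer genes were tested above the median level. The estimate of Mthfd2 lay between -0.0358 and 0.0140 with an array left out and turned positive without combined replicate 1 (0.0050) and without thapsigargin replicate 3 (0.0140). Psat1 and Psph were called lower in all 17, with adjusted p up to 0.0176 and 0.0427. With an array left out, all genes called lower with added forskolin numbered 568 to 1101, beside 924 with all arrays, and neighbouring genes called lower 9 to 16, beside 14. Without thapsigargin replicate 1 the neighbouring genes numbered 9, and the genes called lower numbered 586 without thapsigargin replicate 1, 568 without thapsigargin replicate 3 and 600 without combined replicate 2. The causes of these shifts were not tested. Samples with the same replicate number did not deviate together in every pair (correlations of -0.07 to 0.25, 4 of 9 above 0.1, and 10 of 18 best with their own number), and with the replicate block 9, 3 and 8 members were called in the 3 comparisons, as without it. Signal over background was not checked, which limits the folds of Aldh1l2 in particular.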
